A study of Arabidopsis thaliana with 3 samples.

Results

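The TCP genes of class II encode plant transcription factors with a basic helix-loop-helix DNA-binding domain, and 10 of them were examined here for binding by the chimeric MADS complex SEP3-AG(AP1-I). The CIN genes TCP2, TCP3, TCP4, TCP5, TCP10, TCP13, TCP17 and TCP24 limit cell proliferation and promote differentiation in leaves and petals. TCP2, TCP3, TCP4, TCP10 and TCP24 carry a target site of the microRNA miR319, whereas TCP5, TCP13 and TCP17 do not. TCP12 (BRANCHED 2) and TCP18 (BRANCHED 1, BRC1) belong to the CYC/TB1 branch of the class and repress the outgrowth of axillary buds, TCP18 downstream of strigolactones. MADS TFs bind as dimers and tetramers to CArG boxes, which read CC, 6 A or T, and GG in their canonical form.

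Seq-DAP-seq was used to measure the binding of a single complex, SEP3-AG(AP1-I) (written SEP3-AG(API-I) in the sample titles), in 3 replicates. SEP3 carried a FLAG tag, and AG, with its I domain replaced by that of AP1, carried a Myc tag. Both proteins were made in vitro, and the complex was incubated with sheared genomic DNA from Arabidopsis seedlings, so binding was measured on purified DNA and not in a plant. The authors had joined the replicates into 1 list of 3552 peaks of 400 bp, which gives positions alone, so that no spread between replicates, no depth behind a peak and no binding strength could be given. A gene counted as bound where a peak had its midpoint in a window that opened 3000 bp ahead of the annotated gene start and closed 1000 bp beyond the gene end in TAIR10. All 10 genes were found in the annotation by symbol or synonym, out of 27444 protein-coding genes, and their windows were 5678 to 8240 bp long.

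SEP3-AG(AP1-I) had 4 peaks in the windows of 3 of the 10 genes. TCP24 had a peak over its start and a second one 618 bp upstream, TCP3 a peak 2502 bp upstream and TCP12 a peak inside its coding sequence. TCP2, TCP4, TCP5, TCP10, TCP13, TCP17 and TCP18 were unbound by the rule, although a peak missed the window of TCP18 by 22 bp. Of all protein-coding genes, 18.03% had a peak in the same window, and 19.6% of the 14812 genes whose windows were no shorter and no longer than those of the TCP genes. With 10 genes, 3 bound genes are not read as more than this background, and the results are given gene by gene. With other windows, 2 genes (TCP24 and TCP12) were bound from 1000 bp upstream to the gene end, against 9.91% of all protein-coding genes, and 5 (TCP13 and TCP18 added) from 5000 bp upstream, against 23.01%. Where any overlap with the window was enough, 4 were bound (TCP18 added), against 19.1%, and 3 were the nearest gene to a peak, against 11.7%. Among the CIN genes, 2 of the 5 with a miR319 site and 0 of the 3 without one were bound.

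**Figure D1:**
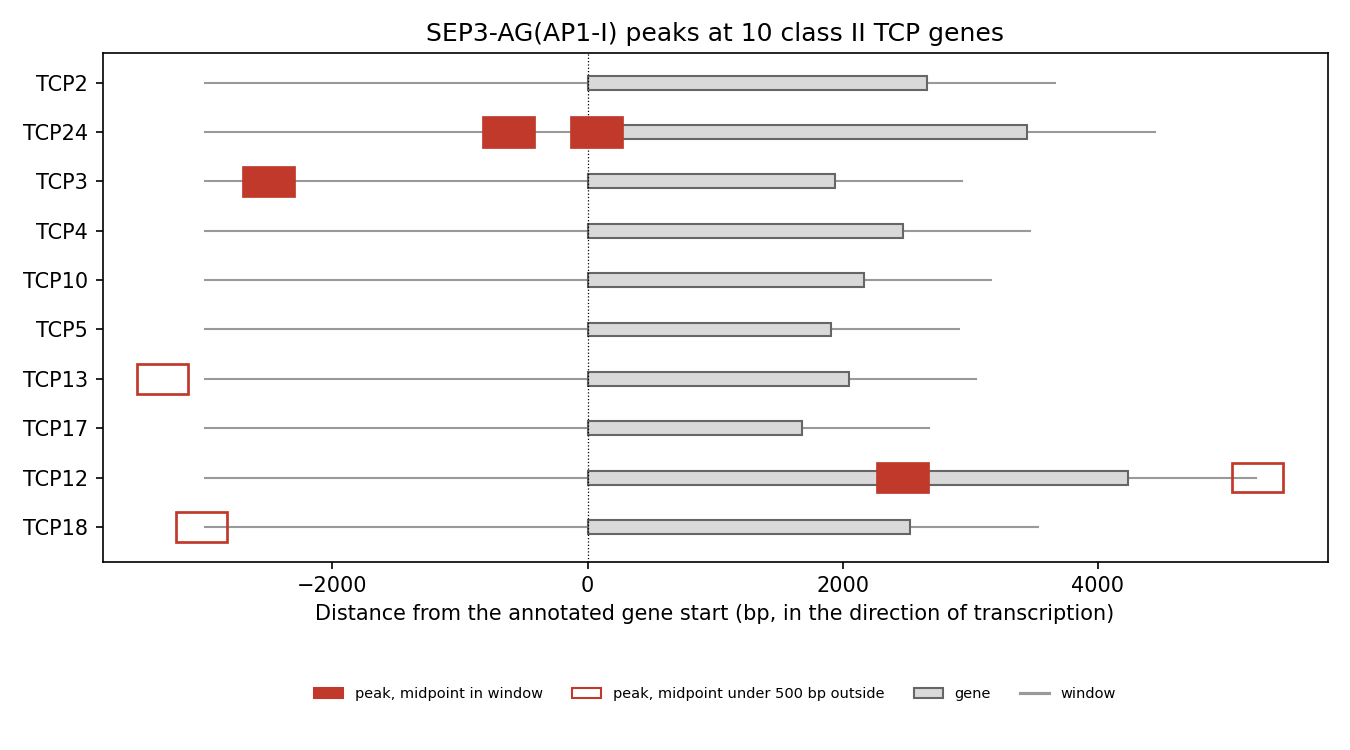
Position of SEP3-AG(AP1-I) peaks at the 10 class II TCP genes, plotted as distance in bp from the annotated gene start, with gene bodies as grey boxes, windows as grey lines, peaks with their midpoint in the window as filled boxes and peaks that missed it by under 500 bp as open boxes. TCP24 has 2 peaks, TCP3 and TCP12 have 1 each, and open boxes stand at TCP13, TCP12 and TCP18.

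The best site in each of the 4 peaks is printed here because it is the sequence that most resembled the motif of all peaks. Each is read from TAIR10 on the strand of the gene, from 5′ to 3′, with the 10 bp core that aligns with the CArG box in capitals.
TCP24, peak over the start, chr1:10630561-10630590: tgatatttttCTCTAACAGGtaataaaact
TCP24, upstream peak, chr1:10631244-10631273: tttcttttttCCTATTTCGGttaagttttg
TCP3, upstream peak, chr1:19854223-19854252: cctctcttttCTTCTTTTGGttattgtgac
TCP12, coding peak, chr1:25847663-25847692: tgtacaattaCTAGAAAAGGaaaataaaga
None of these 4 cores was a canonical box. Their mismatches to it numbered 3 and 1 at TCP24, 2 at TCP3 and 2 at TCP12, and the 3 bases before the core were TTT in the peaks of TCP24 and TCP3 and TTA at TCP12.

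Sites were scored with a palindromic matrix of 16 bp, fitted to the 3548 peaks outside these windows and given in bits, where a higher score means a closer resemblance to the bound sequences. The best site scored 12.55 bits at TCP12, 10.98 and 10.96 bits in the peaks of TCP24 and 9.83 bits at TCP3. Of the other peaks, 72.5% had a lower best score than the peak of TCP12, 53.4% and 53.2% a lower one than the peaks of TCP24, and 38.9% a lower one than the peak of TCP3. With this matrix all 4 lay between the quartiles of the list, 8.72 and 12.74 bits, around a median of 10.72 bits. The ranks depended on the matrix. With one of the 10 bp core alone, 4.59% and 33.9% of the other peaks scored lower than the peaks of TCP24 (start and upstream), 38.0% lower than that of TCP3 and 94.6% lower than that of TCP12. With a 16 bp matrix not held palindromic these shares were 23.4%, 64.2%, 84.6% and 87.1%, and the peak of TCP12 ranked highest with each of the 3 matrices. The 4 best sites were 10 to 14 bp from the centre of their peak, and in the whole list 68.4% of best sites lay within 25 bp of the centre. The GC content was 32.2%, 32.2% and 33.0% in the peaks of TCP3 and TCP24, close to the mean of 32.5% ± 5.10 (SD over 3552 peaks), and 38.0% in the coding peak of TCP12.

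**Figure D2:**
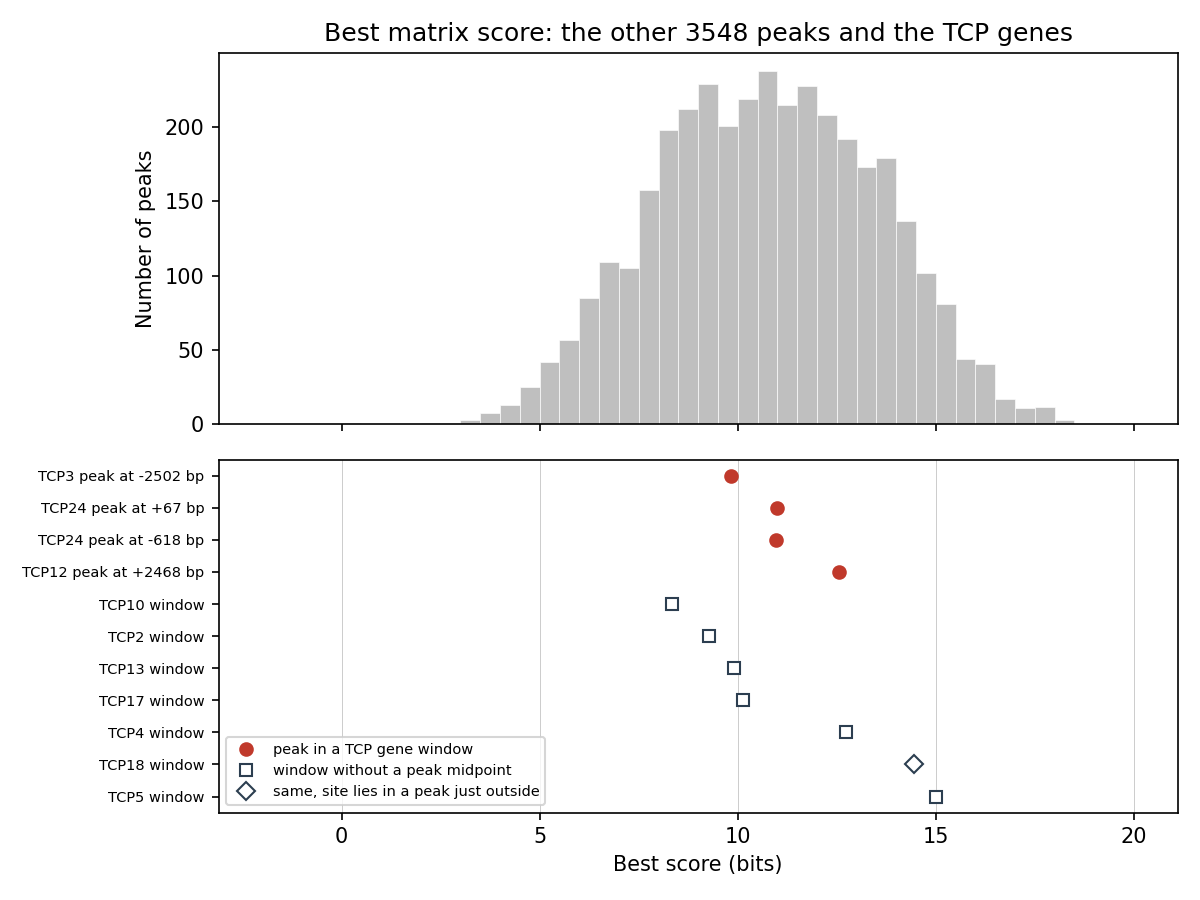
Number of peaks by best matrix score in bits in the other 3548 peaks (bars, upper panel), with the best score of the 4 peaks in TCP windows (filled circles) and the best score in the 7 windows without a peak midpoint (open squares, or a diamond where the site lies in a peak just outside the window). The filled circles lie between 9.83 and 12.55 bits, and the open symbols between 8.35 and 15.00 bits. Open symbols give the best of a whole window, which is far longer than a peak of 400 bp.

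TCP24 (AT1G30210), on the minus strand of chromosome 1 from 10627185 to 10630630, was the only one of the 10 genes with more than 1 peak in its window, which held for 2.19% of all protein-coding genes. The first peak, chr1:10630364-10630763, had its midpoint 67 bp inside the gene, in the 5′ UTR. In the transcript that begins at the gene start, 9 of the 10 bases of its best core lay at the end of a first exon of 59 bp. The last base lay in the intron that follows, so the core spans the exon border of this transcript. The other annotated transcript starts 64 bp downstream of the gene start, and in that model the core lay 5 bp ahead of the transcript. The second peak, chr1:10631049-10631448, lay in intergenic DNA and held a further site of 8.20 bits besides that of 10.96 bits. The cores of these sites were 32 bp apart, a distance found in 0.394% of all peaks. The stretch from one core to the other is shown to give their spacing and order on the strand of the gene.
TCP24 pair, chr1:10631254-10631305: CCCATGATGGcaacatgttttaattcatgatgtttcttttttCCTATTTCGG
No gene other than TCP24 had either peak in its window, and the start of TCP24 was the nearest gene start to both. The highest score in the window, 12.23 bits at 1113 bp upstream of the start, lay in neither peak. A site counted as inside a peak where all 16 bp of it did, which held for 3 of the 9 sites of the window. A further site, of 10.20 bits, had its core within the edge of the second peak, from 10631050 to 10631059, but not its whole flank.

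TCP3 (AT1G53230), on the minus strand of chromosome 1 from 19849788 to 19851725, had the most distant of the 4 peaks. The peak, chr1:19854028-19854427, lay in intergenic DNA, 2502 bp from the start, and held a single site above 7.80 bits, the threshold that the genome passed at a rate of 1 site in 2000 bp. Its midpoint also fell in the window of the neighbouring gene mMDH1, although the start of TCP3 was the nearest. The nearest other peak lay 21647 bp past the edge of the window.

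TCP12 (AT1G68800), on the minus strand of chromosome 1 from 25845892 to 25850131, was bound within its own coding sequence, and no other gene had this peak in its window. The peak, chr1:25847464-25847863, had its midpoint 2468 bp downstream of the start, and both of its sites lay in the coding part of the first exon. It was the only one of the 4 peaks with a canonical CArG box, which 15.96% of all peaks had. This box scored 10.54 bits and lay 113 bp from the peak centre, whereas the best site, with 2 mismatches, scored 12.55 bits and lay 14 bp from it. The cores were 117 bp apart. The box is shown for comparison with the best site above.
TCP12, canonical box, chr1:25847536-25847565: agctcctcttCCATTTTTGGtgactccgag
Its exact core occurred 698 times in the genome, of which 11.3% lay in peaks. The core of the best site, CTAGAAAAGG, occurred 276 times, of which 3.99% lay in peaks. Peaks covered 1.19% of the genome.

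Peaks that lay just beyond a window were found at 3 genes, and the rule kept them out. The peak chr1:25844682-25845081 had its midpoint 1011 bp past the end of TCP12, which is 11 bp outside the window, and 190 bp of it lay inside. It held sites of 10.45 and 8.04 bits and stood in no protein-coding gene's window. The peak chr3:6380068-6380467 had its midpoint 3022 bp upstream of TCP18 (AT3G18550, chromosome 3 from 6383289 to 6385815, plus strand), 22 bp outside the window, and 179 bp of it lay inside. It was counted to AT3G18535, whose start was 2642 bp away. The third of them, chr3:387192-387591, lay 3329 bp upstream of TCP13 and 340 bp upstream of the start of TMAC2, and none of it was in the window of TCP13. Its best site scored only 6.39 bits, below the threshold, although it held a canonical box. A peak that missed the window by under 500 bp was thus found at 3 of the 10 genes, against 3.28% of all protein-coding genes, a limit chosen after these peaks had been seen. At the other 7 genes, all of them CIN genes, the nearest peak outside the window lay 2202 to 21647 bp past its edge.

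The peak near TCP18 had the highest best score of the 7 peaks in or just beyond the windows, 14.46 bits, above that of 90.9% of the other peaks. Its cores were 47 bp apart with a summed score of 26.47 bits, and 0.338% of all peaks had a pair at that distance. Such shares were small at the other pairs as well. They were 0.394% at 32 bp for TCP24, and 0.197% at 117 bp and 0.169% at 91 bp for TCP12. No distance is read from them as preferred. In the pair near TCP18, the stronger site lay 2992 bp upstream of the gene, within the window whose rule the midpoint missed. The pair is shown because the site at its right end is the strongest in the window of TCP18.
TCP18 pair, chr3:6380236-6380302: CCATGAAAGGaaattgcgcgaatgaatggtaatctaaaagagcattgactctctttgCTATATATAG
The annotation gives further transcript starts for TCP18, 219 and 398 bp downstream of the first, from which this peak is more distant.

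The windows of the unbound genes also held CArG-like sites. All 10 windows together held 46 sites above the threshold, 29 of them in the 7 windows without a peak midpoint. Of the 46, 7 lay inside a peak. The genome passes this threshold at 1 site in 2000 bp and the windows were 5678 to 8240 bp long. Several sites per window thus follow from the setting, and the counts are not read as a result about these genes. At a threshold of 1 site in 5000 bp, 18 sites were left, 10 of them in these 7 windows, and 6 of the 18 lay inside a peak, whereas 1 site in 1000 bp gave 89, 56 and 7. TCP5 (AT5G60970) had the highest score of all 10 windows, 15.00 bits in the 5′ UTR 182 bp after its start. TCP4 (AT3G15030) had a site of 12.72 bits in the 5′ UTR 71 bp after its start. Both scores come from the palindromic matrix of 16 bp, and the windows were not ranked with the other matrices. These scores were higher than the best score in 94.3% and 74.7% of the other peaks, and neither gene had a peak. A window is far longer than a peak of 400 bp, so its best score is taken over more positions. Of the windows of genes without a peak, 99.4% had a lower best score than that of TCP5 and 92.1% than that of TCP4. The sites of TCP5 and TCP4 are shown to be set beside the bound sites above.
TCP5, unbound, chr5:24537048-24537077: attctagtttCCAAAAAAAGaaatactaca
TCP4, unbound, chr3:5061738-5061767: gctttggttaCCCAAAAAAGaaagaaagaa
Both cores contain a run of A. The core of TCP5 occurred 1649 times in the genome, with 7.16% of the copies in peaks, and that of TCP4 791 times, with 7.08% in peaks. Among the other unbound windows, the best scores were 10.12 bits at TCP17, 9.90 at TCP13, 9.27 at TCP2 and 8.35 at TCP10. All 4 were below the median best score of the peaks. In the windows of all genes without a peak, the median best score was 10.05 bits and the lower quartile 8.96 bits. TCP17 was above that median, TCP13 and TCP2 lay between it and the quartile, and TCP10 was below the quartile. At TCP18, besides the site of 14.46 bits in the peak just outside its window, sites of 10.99 and 10.73 bits lay outside every peak. The site of TCP13 was a canonical box in its coding exon, 1658 bp after the start.
TCP13, unbound, chr3:392364-392393: ttttcaaatgCCATTAATGGgtaattcttc

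**Figure D3:**
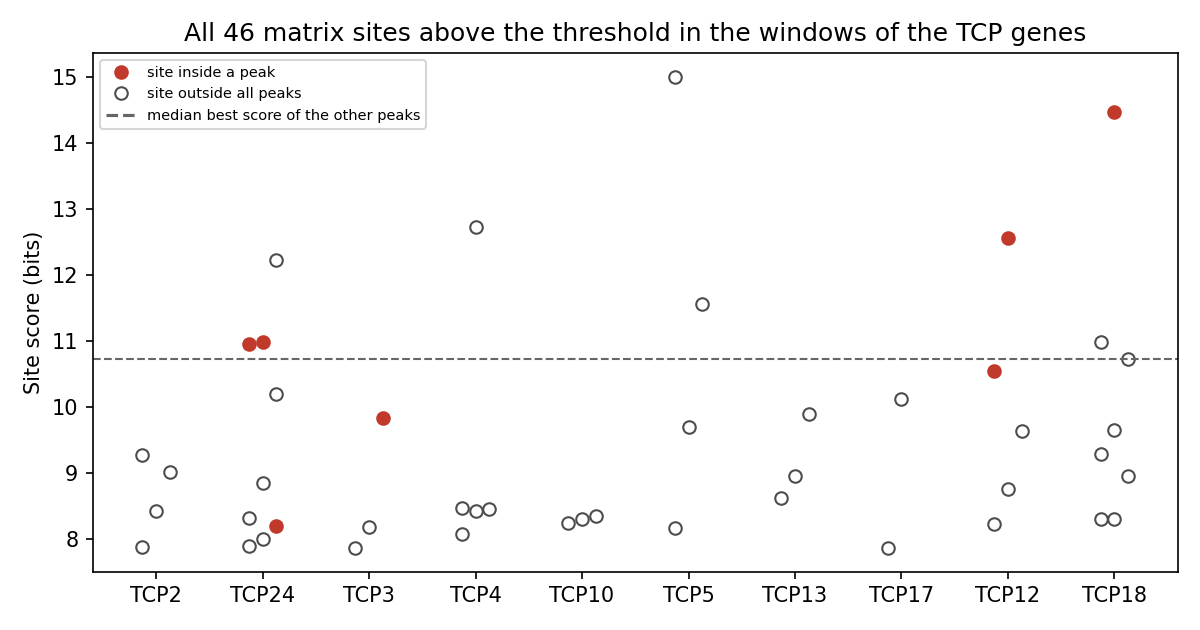
Score in bits of the 46 matrix sites in the window of each TCP gene, with sites inside a peak filled, sites outside all peaks open and the median best score of the other peaks as a dashed line at 10.72 bits. The filled site of TCP18 lies in the peak just outside its window, and the highest open site, 15.00 bits, is that of TCP5.

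In the genome as a whole, the share of sites that lay in a peak increased with the score. It was 4.38% of the 42564 sites from 7.80 to under 10 bits, 9.70% from 10 to under 12 bits, 23.1% from 12 to under 14 bits, 47.5% from 14 to under 16 bits and 63.2% of the 133 sites from 16 bits. Because the matrix was fitted to the peaks, these shares are a description and not a test of it. In the TCP windows, 2 of 33, 3 of 8, 1 of 3 and 1 of 2 sites in the first 4 of these ranges lay in a peak, and no site reached 16 bits. Of the 357 genomic sites scoring as high as that of TCP5 or higher, 58.5% lay in a peak, and of the 2537 at or above the score of TCP4, 36.8% did. The remaining sites at these scores, like those of TCP5 and TCP4, lay outside every peak.

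**Figure D4:**
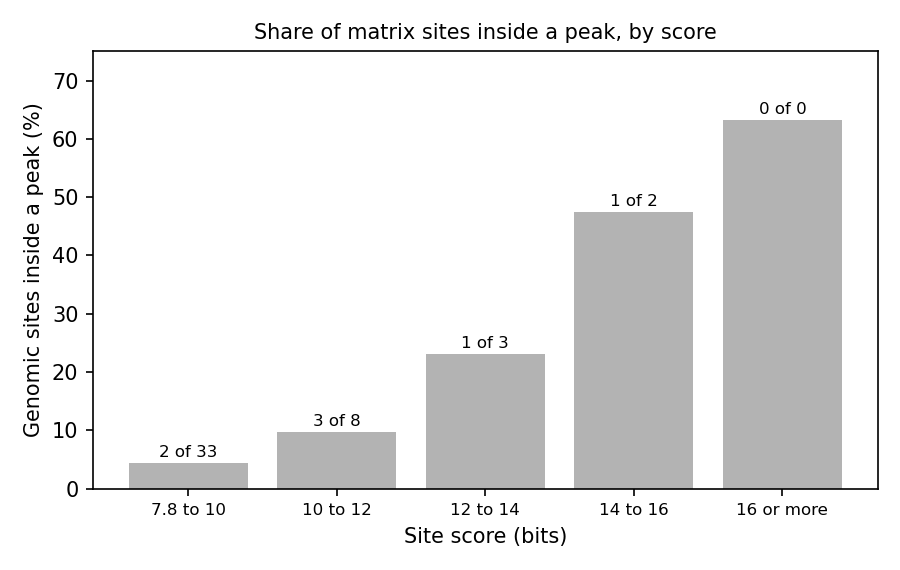
Percentage of matrix sites in the genome that lay inside a peak, in 5 ranges of site score in bits. The numbers above the bars give the sites inside a peak out of all sites in the windows of the 10 TCP genes, and the bars go from 4.38% to 63.2%.

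Binding was also set beside the relatedness of the genes. TCP24 and TCP2, each other's closest relative with 53.1% identity between the encoded proteins (as a share of the shorter), were bound and unbound, and the best site of TCP2 scored 9.27 bits in an intron. TCP3 and TCP4, with 70.3% identity, were likewise bound and unbound, and the site of 12.72 bits near the start of the unbound TCP4 scored higher than that in the peak of TCP3. TCP5 and TCP17, with 66.5% identity, were both unbound. In the other branch, TCP18 was closest to TCP1, the remaining gene, at 31.2%, and TCP12 had 30.4% identity to TCP1 and to TCP18 alike. TCP1 itself was closest to the CIN gene TCP17, at 34.7%, so this measure did not set the branch apart. TCP1 had no peak in its window. With 18.03% of all genes bound, a bound and an unbound gene in a pair are not read as a difference between relatives.

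Among the other motifs, the class II TCP core TGGTCC was found in 0 of the 4 peaks and in 9.46% of all peaks, and the G-box CACGTG in 0 of 4 against 5.18%. CCANTG, a core bound by LEAFY, was found in 1 of 4, that of TCP12 with 4 matches, against 32.4% of all peaks. Both strands were searched, and CCANTG can overlap the end of a CArG site. At most 1 mismatch to the CArG box was found in 3 of 4 peaks against 79.95%, the exception being the peak over the start of TCP24. A looser form, which also takes T for the second C and A for the first G, was present in 1 of 4 against 56.1%. A site above the threshold was present in 4 of 4 against 84.6% of all peaks, and 2 or more sites in 2 of 4 against 30.3% (1 of 4 against 12.7% at 1 site in 5000 bp).

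The genes that act before and after these TCP genes were bound in part. Of the 3 genes of miR319, which directs cleavage of the mRNAs of TCP2, TCP3, TCP4, TCP10 and TCP24, MIR319B had a peak 73 bp upstream of its annotated hairpin and MIR319C a peak 782 bp downstream of the hairpin start, with best scores of 9.14 and 6.82 bits. MIR319A had none. Of all 326 annotated microRNA genes, 11.3% had a peak in the same window, and from 3 genes nothing beyond the count is read. The mature sequences, with the seed (bases 2 to 8) in capitals, and the matching sites in the bound genes TCP3 and TCP24, with bases complementary to miR319a in capitals, show which of the bound genes are tied by sequence. TCP24 had 5 and TCP3 had 6 mismatches to the full complement.
miR319b, chr5:16660469-16660489: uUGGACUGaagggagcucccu
miR319c, chr2:17029870-17029890: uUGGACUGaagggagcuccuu
TCP24, chr1:10628989-10629009: taGGgGgaCCCTTCAGTCCAA
TCP3, chr1:19850522-19850542: gaGGgGtcCCCTTCAGTCCAt
Both sites lay in coding sequence, 1564 and 3695 bp from the midpoint of the nearest peak. The core of the site at MIR319B, CTATATATAG, was the same as that of the stronger site near TCP18, and the flanks set their scores apart.
MIR319B, chr5:16660722-16660751: ctgttttatgCTATATATAGtataatcaaa
TCP18, chr3:6380283-6380312: actctctttgCTATATATAGaaaatgattc

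In the branching pathway, 3 of 10 genes of strigolactone synthesis and signalling and 3 of 4 genes reported to act downstream of TCP18 had a peak, against the 18.03% of all protein-coding genes. MAX3 and MAX4, which encode the carotenoid cleavage dioxygenases of strigolactone synthesis, had peaks 1835 bp (9.52 bits) and 2289 bp (12.01 bits) upstream of their starts. SMXL7, a repressor of strigolactone signalling, had 2 peaks, 1592 bp (13.14 bits) and 638 bp (7.84 bits) upstream. NCED3, which catalyses a step of abscisic acid synthesis, had a peak 149 bp after its start in the 5′ UTR (11.00 bits). The homeobox genes HB40 and HB21 had peaks 2269 bp (10.29 bits) and 2697 bp (7.72 bits) after their starts, beyond the gene ends. The symbol HB21 also matched AT2G02540, which had no peak. The homeobox gene AT2G18550 was taken for it after both had been looked up in the peak list, and with AT2G02540 in its place 2 of the 4 genes were bound. Of 9 genes downstream of the CIN genes, 1 had a peak, the boundary gene CUC2. The peak of CUC2 lay 2866 bp after its start, beyond the gene end (14.47 bits). None of the 4 TIE genes, which encode repressors of TCP proteins, had one. These lists are short and were chosen with earlier results of these data known, and nothing beyond the counts is read from them.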

How the data were processed

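Seq-DAP-seq of SEP3-AG(AP1-I) was performed by the authors in 3 replicates. Reads were mapped with Bowtie2 to TAIR10 without organelle genomes, duplicates were removed with SAMtools, MACS2 called peaks in each replicate relative to input DNA, MSPC joined them, and each peak was re-sized to 400 bp around its maximum. Bowtie2, SAMtools, MACS2 and TAIR10 are named in the submitters' processing notes, without versions. The deposited list has positions in bp alone, the 3 replicates being joined, so no test over samples was possible, and the stringency of calling decides which sites appear. SEP3-AG was not analysed here.

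Sequences and genes were taken from TAIR10.1 (RefSeq), whose nuclear chromosomes hold every peak within their length. The best sites lay at a median of 17 bp from the peak centre, 68.4% of them within 25 bp. Coordinates count from 1. Symbols or synonyms gave all member genes. TCP6, TCP11 and HB21 were matched by locus, as symbols were missing or ambiguous. These loci were set after the peaks at them had been seen. The 16 bp matrix was fitted by expectation maximisation to the 3548 peaks outside the windows. The fit used 30 iterations and 0 or 1 site per peak, and started from a CArG box with T before and A after it. The fitting procedure was also run on simulated regions. Their planted motif was a sharper form of the starting matrix, so that run is no test of the matrix fitted to the peaks. The fit not held palindromic started from 1 uneven matrix. Scores are log2 of the base shares over those of the peaks as a whole. Sites had centres at least 10 bp apart. Protein identities came from global alignment of translated coding sequences. The genes named were all 10 members, TCP1, the nearest gene to each peak and up to 5 bound genes per list. Members and lists were chosen with earlier results of these data known. Alternatives were other windows, matrices, boxes and thresholds. Python 3.11.15, numpy 2.4.6, pandas 2.3.3 and Biopython 1.88 were used.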

Additional observations from a re-analysis of the deposited data

How the results depend on the processing

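The count of bound genes was 2 from 1000 bp upstream to the gene end, 3 by nearest gene start, 4 by any overlap and 5 from 5000 bp upstream, in place of 3. With a matrix of the 10 bp core alone, the share of other peaks scoring lower was 4.59% for the peak over the start of TCP24, 33.9% for its upstream peak and 94.6% for TCP12, and without the palindrome 23.4%, 64.2% and 87.1%, with 84.6% for TCP3. The cause was not tested. In the central 200 bp it was 40.6% for TCP3. With 1 mismatch allowed, 3 peaks in place of 1 had a CArG box. In the shorter window, the best site scored above 6.31% of the other peaks at TCP17 and 53.6% at TCP18. Fitting the matrix on all peaks gave shares of 53.6% and 53.2% for TCP24, 39.0% for TCP3 and 72.7% for TCP12. None moved beyond its exact (Clopper-Pearson) binomial interval, which treats the peaks as independent and measures no spread between replicates. Merging near peaks left 4 peaks, and all 4 held a site at each threshold. Counts of sites in the windows, tried at other thresholds after the data were seen, went from 18 to 89 around 46, those in windows without a peak midpoint from 10 to 56 around 29, those inside a peak from 6 to 7, and peaks with 2 or more sites from 1 to 2. No paired analysis was possible because the list carries no values per replicate, and for the same reason no replicate could be left out. The list gives no depth, so a gene without a peak is one where binding did not pass the authors' calling, not one shown to be free of it.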

Other observations

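Of the 13 class I TCP genes, the other class of the family, 3 had a peak in the same window (23.1%, against 18.03% of all protein-coding genes). All 3 peaks lay past the gene end, at TCP6 (midpoint 1810 bp from the start, best site 11.11 bits), TCP7 (2530 bp, 12.56 bits, with a canonical CArG box) and TCP11 (AT2G37000, 1051 bp, 16.12 bits). The loci of TCP6, which was not found by symbol, and TCP11 were set after their peaks had been seen. The annotation gives the symbol TCP11 to AT5G08330, which had no peak and was counted here under its synonym TCP21. Without AT2G37000, 2 of the other 12 genes had a peak. The peak of TCP11 scored above 98.0% of the peaks used for the matrix, higher than any peak at the class II genes.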
